A study of Rattus norvegicus with 2 samples.

Results

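The expression of 6 genes that govern fat oxidation and the pyruvate dehydrogenase complex was examined in left ventricular (LV) RNA of Dahl salt-sensitive (DS) rats. The genes were Ppargc1a (ENSRNOG00000004473), Ppara (ENSRNOG00000021463), Lpin1 (ENSRNOG00000004377), Acadm (ENSRNOG00000009845), Pdp2 (ENSRNOG00000012343) and Pdk4 (ENSRNOG00000009565), 6 of the 20174 genes on the array. Pdp2 and Lpin1 were selected by the study on these same arrays, for a low ratio of HS (−) to NS (−) and a high ratio of HS (ch+) to HS (−), so their ratios are given as a description. The other 4 were chosen by their role, with earlier results of these arrays known. The names of Pdp2 and Lpin1 come from the study's list of 50 genes. For the other 4 genes the pairing of ID and name was given with the list of members and could not be checked, since the files hold IDs without names and 0 of the array's IDs were found in the gene table used here. Each ID had 1 spot, whose probe sequence is not used here. A ratio was obtained for 6 of the 6 on both arrays, as for 12290 genes in all, and 4 of the 6 also had an HS (−) signal of 100 or more on each array, as did 4127 genes.

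All rats were male DS rats, which develop hypertension, LV hypertrophy and heart failure when they are fed salt. They were bought at 5 weeks of age. The control pool, NS (−), came from rats on a diet with 0.3% NaCl. The heart failure pool, HS (−), came from rats on 8% NaCl, and the treatment pool, HS (ch+), from rats on 8% NaCl that were also injected with 0.25 mg/kg of chaetocin into the peritoneum, in 2 doses per week between weeks 6 and 13 of life. Chaetocin is a fungal compound that inhibits histone H3 lysine 9 methyltransferases. It had been dissolved in dimethyl sulfoxide, and whether the rats of the other pools received this solvent is not given in the sources used here. Each pool mixed RNA of 3 rats picked at random from their group at the stage of heart failure, and the labels call the hearts of both high-salt pools failing. Array 1 set HS (−) RNA in the red dye Cy5 against NS (−) RNA in the green dye Cy3, and array 2 set HS (−) RNA in Cy5 against HS (ch+) RNA in Cy3. The labels give the HS (−) RNA of both arrays the same description, and it was taken as 1 pool. With 1 array per comparison there is no replicate and no p-value. HS (−) was in Cy5 on both arrays. In HS (−)/NS (−) and in HS (ch+)/HS (−), a difference between pools therefore cannot be told apart from a preference of the gene's probe for one dye. The 2 arrays together do not separate them for these ratios either. A preference for Cy3 would lower HS (−)/NS (−) and raise HS (ch+)/HS (−). In HS (ch+)/NS (−) a preference equal on both arrays would cancel, since both of these pools were in Cy3.

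The heart covers most of its need for energy by oxidizing fatty acids in mitochondria, and the rest largely by oxidizing pyruvate from glucose and lactate. Ppara encodes the nuclear receptor PPARα, which switches on genes of fatty acid oxidation when it is bound by lipids, and Ppargc1a encodes PGC-1α, a coactivator of PPARα and of other receptors that drive mitochondrial biogenesis. Lipin 1, the product of Lpin1, is both a phosphatidate phosphatase of triglyceride synthesis and a nuclear partner of PGC-1α and PPARα. Acadm encodes medium-chain acyl-CoA dehydrogenase, an enzyme of the first step of β-oxidation and a classical target of these regulators. Entry of pyruvate into the citric acid cycle is set by the pyruvate dehydrogenase complex, which is switched off by kinases such as that encoded by Pdk4 and switched on again by phosphatases such as that encoded by Pdp2. In failing and hypertrophied hearts this network is known for reduced expression of the fat oxidation program.

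The stretches upstream of Ppargc1a and Acadm are shown because they share a motif. Their ratios were the most similar pair among the 6 genes, but this closeness was neither rare nor stable. Of genes with an HS (−) signal of 100 or more on each array, 249 were nearer to Ppargc1a and 534 nearer to Acadm. Across the ways of processing, log2 HS (−)/NS (−) of Ppargc1a minus Acadm ranged from -0.50 to 0.49. For log2 HS (ch+)/HS (−) this difference ranged from -0.84 to 0.017. A link between the motif and the ratios was not tested. In RefSeq's GRCr8 assembly, which is not stated to be the build behind the array, 5 of the 6 genes had an entry among the promoter sequences used here, and Pdp2 had none. Of each entry, the 250 bases before the annotated start of the gene were searched on both strands for TGACGTCA, the cAMP response element at which CREB is known to act on Ppargc1a, for AGGTCA, the half-site of nuclear receptors such as PPARα, and for CACGTG, an E-box; no motif contains another, and the motifs were chosen after the sequences had been seen. TGACGTCA was found in Ppargc1a and Acadm, that is in 2 of the 5 windows, against 1.59% of 33469 windows of the same length. In Ppargc1a it lies from 181 to 174 bases before the start, and in Acadm from 103 to 96 bases before it. AGGTCA, present in 14.1% of all windows, and CACGTG, present in 5.59%, were in 0 of the 5. The share of G and C was 50.4% in the window of Ppargc1a and 62.4% in that of Acadm, with a median of 51.2% over all windows. Both windows are printed 5′ to 3′ on the strand of the gene, with TGACGTCA in capitals. The window of Ppargc1a is chr14:63634058-63634307 on the plus strand, and that of Acadm is chr2:245542865-245543114 on the minus strand.
Ppargc1a: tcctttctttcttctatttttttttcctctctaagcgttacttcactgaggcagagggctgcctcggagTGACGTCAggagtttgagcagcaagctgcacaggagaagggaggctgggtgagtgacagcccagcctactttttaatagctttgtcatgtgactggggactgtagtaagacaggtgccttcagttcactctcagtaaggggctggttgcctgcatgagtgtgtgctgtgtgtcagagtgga
Acadm: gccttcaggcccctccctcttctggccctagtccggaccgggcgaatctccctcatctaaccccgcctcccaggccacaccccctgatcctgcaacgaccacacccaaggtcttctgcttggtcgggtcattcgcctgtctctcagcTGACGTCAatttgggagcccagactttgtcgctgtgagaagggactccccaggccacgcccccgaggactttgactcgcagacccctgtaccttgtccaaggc
These letters describe the sequence only, and binding of a factor to them was not measured here.

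Signals are spot intensities in arbitrary units after subtraction of the mean of the blank spots, and ratios are centered so that the median spot of each array has a ratio of 1. Before centering, the median spot was brighter in Cy3 than in Cy5, with a log2 difference of 0.17 for array 1 and 0.38 for array 2. HS (−), which was in Cy5, therefore had the lower signal for a typical gene on both arrays, and differences between pools are read from the centered ratios. HS (−) RNA was read in Cy5 on each array, and the spread between these readings served to judge technical error. Among the 4127 genes that reached a signal of 100 in HS (−) on each array, the log2 readings differed with an SD of 0.16, that is 1.12-fold, around a median shift of 0.15 toward array 2. For genes with a signal under 20 the SD was 0.33, or 1.26-fold. This SD does not include differences between rats.

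Of the 6 genes, 6 had an HS (−)/NS (−) ratio under 1, as did 49.5% of all genes with both ratios, and 5 had an HS (ch+)/HS (−) ratio over 1, as did 49.4% of all genes. The median HS (−)/NS (−) ratio of the 6 was 0.569, against 1.003 for all genes. For HS (ch+)/HS (−) the median of the 6 was 1.19, and that of all genes was 0.996. These counts and medians include Pdp2 and Lpin1, which were selected on these ratios, so they follow in part from that selection. Without that pair, the HS (−)/NS (−) ratios were 0.629 for Ppargc1a, 0.516 for Ppara, 0.705 for Acadm and 0.929 for Pdk4. Their HS (ch+)/HS (−) ratios were 1.13, 0.706, 1.24 and 1.11 in the same order. The study's limits of under 0.5 for the first ratio and over 1.4 for the second were passed by 2 of the 6 genes each, in both cases Pdp2 and Lpin1, which had been selected by these limits. Among all genes with both ratios, 2.75% passed the first limit, 8.26% the second and 1.81% both; among the 4127 genes that reached the signal of 100, these shares were 1.38%, 5.86% and 1.21%. Of the other 4 genes, Ppara was closest to the first limit, at 0.516, and Acadm was closest to the second, at 1.24. Of the selected pair, Lpin1 was nearer to each limit, at 0.343 and 1.46. Since both ratios contain the same HS (−) RNA in the same dye, a deviation of that pool moves them in opposite directions. A preference of a probe for one dye does so as well.

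**Figure D1:**
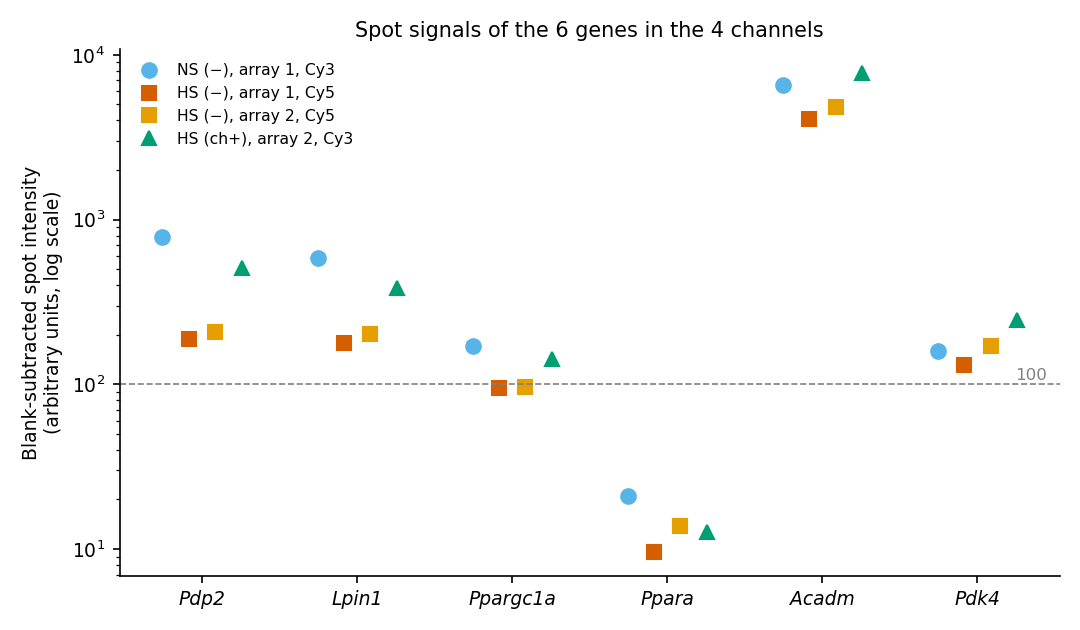
Blank-subtracted spot intensity before centering (arbitrary units, log axis) of the 6 genes in the 4 channels of both arrays, 1 spot and 1 pool per point, with a signal of 100 as a dashed line. The squares of HS (−), the same RNA read on both arrays, lie below the NS (−) circle for all genes but Pdk4, where the square of array 2 (171) is above it (158); Ppara lies between 9.62 and 21.0 in every channel.

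Among the transcriptional regulators, Ppargc1a had a signal of 171 in NS (−) and 95.5 in HS (−) on array 1, and of 96.8 in HS (−) and 142 in HS (ch+) on array 2. The repeated HS (−) readings were nearly equal, and both were below the Cy3 signals of the other pools before centering. After centering, Ppargc1a had an HS (−)/NS (−) ratio of 0.629, a difference of -0.67 on the log2 scale that was 4.29 times the SD of repeated readings of genes with a signal from 50 to 100 (0.16). Of all genes with both ratios, 7.66% had a lower one. The difference between HS (ch+) and HS (−) was close to the technical error. Its HS (ch+)/HS (−) ratio was 1.13, or 0.18 on the log2 scale, 1.16 times that SD, and 71.3% of all genes had a lower one. With the HS (−) reading of array 1 in place of that of array 2, this ratio was 1.02. The product of both ratios placed HS (ch+) at 0.712 of the NS (−) level.

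The study's list also required a normalized level of 100 or more in HS (−), read here as the blank-subtracted signal, and Ppargc1a was just below 100 in both readings. Its ratios depended on the background. The local background recorded beside the spot made up 51.9% of the spot in HS (−) and 69.9% in NS (−) on array 1, and 43.2% in HS (−) and 67.3% in HS (ch+) on array 2. When this value was subtracted instead of the blanks, the HS (−)/NS (−) ratio was 0.973 and the HS (ch+)/HS (−) ratio 0.756. Across 8 alternatives, of which the deposited table equals the values above, the HS (−)/NS (−) ratio of Ppargc1a ranged from 0.564 to 1.01, and its HS (ch+)/HS (−) ratio from 0.756 to 1.19. The HS (ch+)/NS (−) ratio of Ppargc1a was under 1 in 9 of 9 alternatives other than the deposited table, between 0.573 and 0.822. The study also measured Ppargc1a and Acadm by PCR, and those measurements were not used here.

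Ppara was close to the blank spots throughout, with a signal of 21.0 in NS (−) and 9.62 in HS (−) on array 1, and of 13.8 in HS (−) and 12.6 in HS (ch+) on array 2. Repeated readings of the same HS (−) RNA differed by 1.43-fold. Its ratios were 0.516 for HS (−)/NS (−) and 0.706 for HS (ch+)/HS (−), that is 2.87 and 1.51 times the SD of 0.33 of genes with a signal under 20. Ppara was the only one of the 6 genes with an HS (ch+)/HS (−) ratio under 1, and the HS (ch+) level was 0.364 of NS (−) by the product of both ratios. With 50 added to each signal, which damps ratios of dim spots, the ratios were 0.872 and 0.894. Across the 8 alternatives, the HS (−)/NS (−) ratio was between 0.455 and 0.934, and the HS (ch+)/HS (−) ratio between 0.706 and 0.995, so that each came close to 1 under at least 1 of them.

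Lpin1 had a signal of 581 in NS (−) and 177 in HS (−) on array 1, and of 202 in HS (−) and 384 in HS (ch+) on array 2. Both HS (−) readings were below both Cy3 signals before centering, and after centering the readings of HS (−) differed by less than the SD. The HS (−)/NS (−) ratio was 0.343 and the HS (ch+)/HS (−) ratio 1.46, which was within 1 SD of the limit of 1.4 that had selected the gene. Of the 12290 genes with both ratios, 86 had a lower HS (−)/NS (−) ratio, a rank that follows in part from the selection of Lpin1. HS (ch+) was at 0.502 of NS (−), and the HS (ch+)/HS (−) difference made up 35.6% of the HS (−)/NS (−) difference on the log2 scale. Across the ways of processing, the first ratio ranged from 0.332 to 0.483 and the second from 1.17, without background subtraction, to 1.88, with the background of the spot subtracted.

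**Figure D2:**
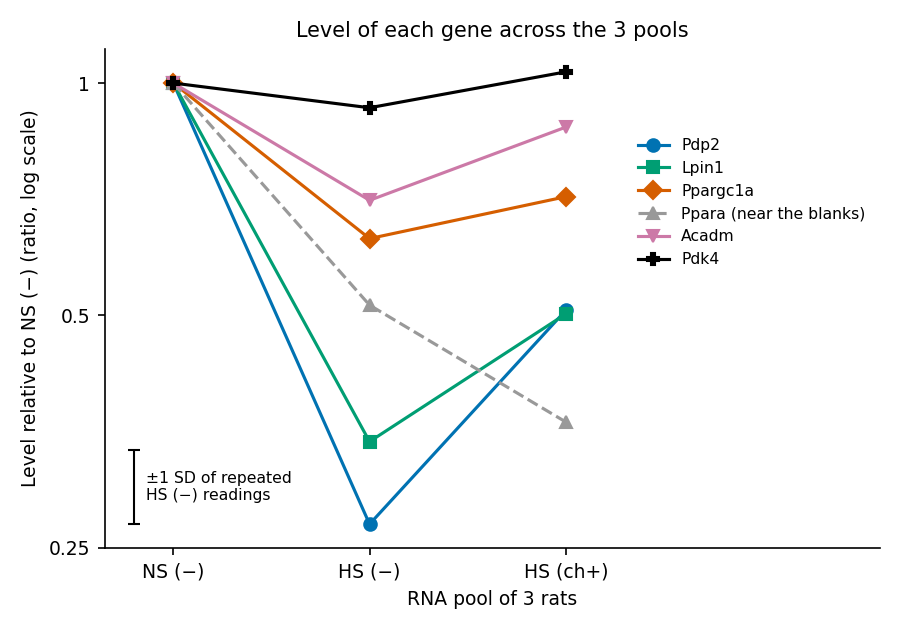
Level of each gene relative to NS (−) (log axis) in the 3 pools, with HS (−) from the ratio of array 1 and HS (ch+) from the product of both ratios; 1 point is 1 pool of 3 rats, and the bar shows ±1 SD (0.16 on the log2 scale) of the repeated HS (−) readings of genes with a signal of 100 or more, which for genes as dim as Ppara was 0.33. Pdp2 (0.268, then 0.508) and Lpin1 (0.343, then 0.502) were lowest in HS (−), Pdk4 (0.929, then 1.03) was within 1 SD of NS (−) in both, and Ppara, near the blanks, was lower still in HS (ch+).

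Acadm, the enzyme of β-oxidation among the 6, had a signal of 6541 in NS (−) and 4103 in HS (−) on array 1, and of 4792 in HS (−) and 7739 in HS (ch+) on array 2. HS (−) was the lower channel on each array before centering, as for the median spot. The HS (−)/NS (−) ratio was 0.705, or -0.50 on the log2 scale, which was 3.44 times the SD of 0.15 of genes with a signal over 1000, and 13.1% of all genes had a lower ratio. The HS (ch+)/HS (−) ratio was 1.24, or 0.31 on the log2 scale and 2.15 times that SD, with 83.1% of all genes below it. By these ratios HS (ch+) lay between the other pools. It was at 0.877 of NS (−), and the second difference made up 62.4% of the first on the log2 scale. The local background was at most 5.20% of the spot, and with it subtracted in place of the blanks the ratios of Acadm were 0.693 and 1.35. Loess within the 48 blocks of the array brought the ratios to 0.880 and 1.13, and without background subtraction they were 0.941 and 0.992.

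The lists of pathway genes, 66 genes of fatty acid uptake, β-oxidation, pyruvate dehydrogenase and their regulators, could be filled only in part, as 9 of the 66 could be paired with an ID here. These were the 6 genes and 3 further genes of the β-oxidation list, Hadh, Eci2 and Acot13. The study had selected these 3 on these arrays, so neither the direction nor the size of their ratios is independent evidence. Hadh, the 3-hydroxyacyl-CoA dehydrogenase of the third step of the cycle, had a signal of 3325 in NS (−) and of 1204 and 1338 in the HS (−) readings, with log2 ratios of -1.30 for HS (−)/NS (−) and 0.49 for HS (ch+)/HS (−). Eci2, an isomerase for unsaturated fatty acids, had ratios of 0.476 and 1.58, and Acot13, an acyl-CoA thioesterase, had ratios of 0.488 and 1.46. Of the 16 genes listed for fatty acid uptake and the carnitine shuttle 0 had an ID here, so these steps were not analysed.

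Pdp2, the phosphatase that activates pyruvate dehydrogenase, had a signal of 787 in NS (−) and 188 in HS (−) on array 1, and of 208 in HS (−) and 510 in HS (ch+) on array 2. Both HS (−) readings were below the Cy3 signals of the other pools before centering. Its HS (−)/NS (−) ratio was 0.268, a 3.73-fold difference, and 31 of the 12290 genes had a lower one. The HS (ch+)/HS (−) ratio was 1.89, and 98.9% of all genes had a lower one. As Pdp2 was selected on these ratios, both ranks follow in part from that selection. HS (ch+) lay between the other pools for this gene, about midway on the log2 scale. It was at 0.508 of NS (−), and the second difference made up 48.5% of the first on the log2 scale. The local background of this spot was high, between 52.2% and 60.3% of the spot in the 4 channels. The HS (−)/NS (−) ratio was between 0.256 and 0.383 across the ways of processing. The HS (ch+)/HS (−) ratio was between 1.36, with normexp and loess, and 1.98.

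Pdk4, the kinase that inactivates pyruvate dehydrogenase, had a signal of 158 in NS (−) and 131 in HS (−) on array 1, and of 171 in HS (−) and 247 in HS (ch+) on array 2. The HS (−) readings of the 2 arrays lay on either side of the NS (−) signal. The HS (−)/NS (−) ratio was 0.929, 0.636 times the SD of genes with a signal from 100 to 200 (0.17), and the HS (ch+)/HS (−) ratio was 1.11, 0.926 times that SD. Neither difference exceeded the repeated readings, and the readings of HS (−) themselves differed by 0.38 on the log2 scale, or by 0.24 beyond the median shift between the arrays. With the HS (−) readings exchanged between the arrays, the ratios were 1.07 and 1.28. Each ratio of Pdk4 kept its side of 1 in 5 of the 7 alternatives other than the deposited table, but these were not the same 5. HS (−)/NS (−) changed side with the HS (−) readings exchanged, HS (ch+)/HS (−) with normexp and loess, and both without background subtraction. A change of Pdk4 was not detectable with these arrays, which does not show that there was none.

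**Figure D3:**
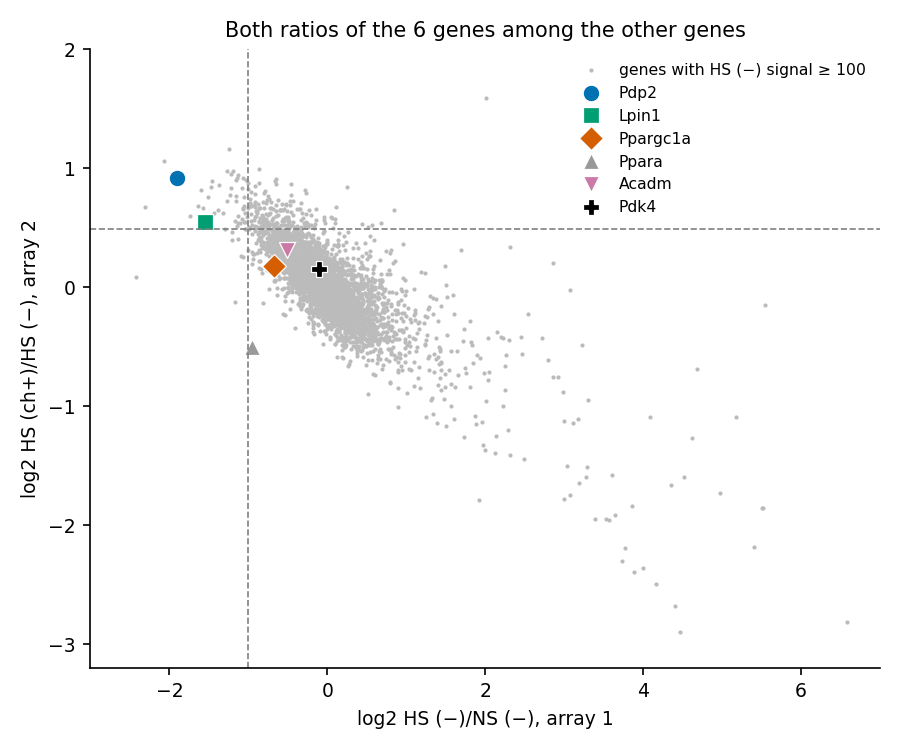
Log2 HS (−)/NS (−) ratio of array 1 (horizontal) against log2 HS (ch+)/HS (−) ratio of array 2 (vertical) for the 6 genes (symbols) and the 4127 genes whose HS (−) signal reached 100 (gray points); dashed lines mark the study's limits of 0.5 and 1.4. Pdp2 and Lpin1, selected by these limits, lie in the sparse upper left, Ppargc1a, Acadm and Pdk4 lie within the main cloud, and Ppara lies below it.

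A difference between genes on the same array does not depend on the centering. On array 1, the log2 HS (−)/NS (−) ratio of Pdp2 minus that of Pdk4 was -1.79, a 3.46-fold difference, and it stayed between -2.03 and -1.30 across the 8 alternatives. On array 2, the HS (ch+)/HS (−) ratio of Pdp2 was higher than that of Pdk4 by 0.77, between 0.45 and 0.77 across those settings. Pdp2 had been selected by these ratios and Pdk4 had not, so the gap between them follows in part from this selection and is given as a description. In HS (ch+), the level of Pdp2 relative to Pdk4 was 0.491 of that in NS (−).

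In the order of the HS (−)/NS (−) ratios, Pdp2 was lowest, followed by Lpin1, Ppara, Ppargc1a, Acadm and Pdk4. The step between Ppargc1a and Acadm was 0.728 times the SD that repeated readings give for a difference between genes (the square root of 2 times 0.16), so these neighbors were not separated, and its sign changed with the processing, with a range from -0.50 to 0.49. The step between Ppara and Ppargc1a, 0.29 on the log2 scale, was below the SD of 0.33 of genes as dim as Ppara, and Ppara minus Ppargc1a ranged from -0.45 to 0.35 with the processing. The place of Pdp2 and Lpin1 at the end of both orders follows from their selection. In the order of the HS (ch+)/HS (−) ratios, Ppara was lowest, followed by Pdk4, Ppargc1a, Acadm, Lpin1 and Pdp2. Here the steps from Pdk4 to Ppargc1a and from Ppargc1a to Acadm were 0.113 and 0.597 times that SD, and that from Acadm to Lpin1 was 1.04 times. Both ends of this order turned with the processing. Ppara minus Ppargc1a reached 0.29 with normexp and loess, and Pdp2 minus Lpin1 reached -0.10 with the spot background subtracted. In the HS (ch+)/NS (−) ratios, Lpin1 and Pdp2 differed by 0.02 on the log2 scale, less than repeated readings did.

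The ratio of HS (ch+) to NS (−) can also be taken directly from the Cy3 channels. This leaves out the HS (−) pool but sets spots of separate arrays against each other. A dye preference of a probe, if equal on both arrays, cancels here and in the product of both ratios. The direct ratio was 0.499 for Pdp2, 0.508 for Lpin1, 0.642 for Ppargc1a, 0.463 for Ppara, 0.910 for Acadm and 1.198 for Pdk4. For Pdp2, Lpin1, Ppargc1a and Acadm this was within 1 SD of the product of both ratios, and for Ppara and Pdk4 it was not. Both ways use the same Cy3 signals and differ only through the repeated HS (−) readings and the centering, so this is not a second measurement.

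The genes most like each of the 6 were sought among the 54 genes with a name, by the Euclidean distance between the pairs of log2 ratios over the 3 pools. Nearest to Pdp2 were Dhrs7c, Eno3 and Fkbp4, at distances of 0.23, 0.32 and 0.36. Among the 3 nearest to Lpin1 were Wfdc1 and Cmbl, at 0.12 and 0.13. Ppargc1a and Acadm were each other's nearest named gene, at 0.21, but 249 and 534 genes of the 4127 were nearer to Ppargc1a and to Acadm than that. Within a distance of 0.25 lay 1 of the 4127 genes for Pdp2, 8 for Lpin1, 371 for Ppargc1a, 691 for Acadm, 1234 for Pdk4 and 0 for Ppara. All named genes other than the members come from the study's list, which was selected on these ratios, so few of them could lie near Ppargc1a, Ppara, Acadm or Pdk4.

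In RNA of whole tissue, fewer cardiomyocytes and less of an RNA per cardiomyocyte cannot be told apart. Of the 22 cell type markers listed, 2 had an ID here. Myh6, the α-myosin heavy chain of cardiomyocytes, had HS (−) readings of 11788 and 15969. Its HS (−)/NS (−) ratio was at most 0.202, as the NS (−) spot was saturated, and its HS (ch+)/HS (−) ratio was 1.59. Cd74, a chaperone of antigen presentation in immune cells, had ratios of 0.363 and 1.85. Both markers had ratios on the same side of 1 as Pdp2 and Lpin1, both were selected by the study on these ratios, and their part in the values of the 6 genes was not tested.

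**Figure D4:**
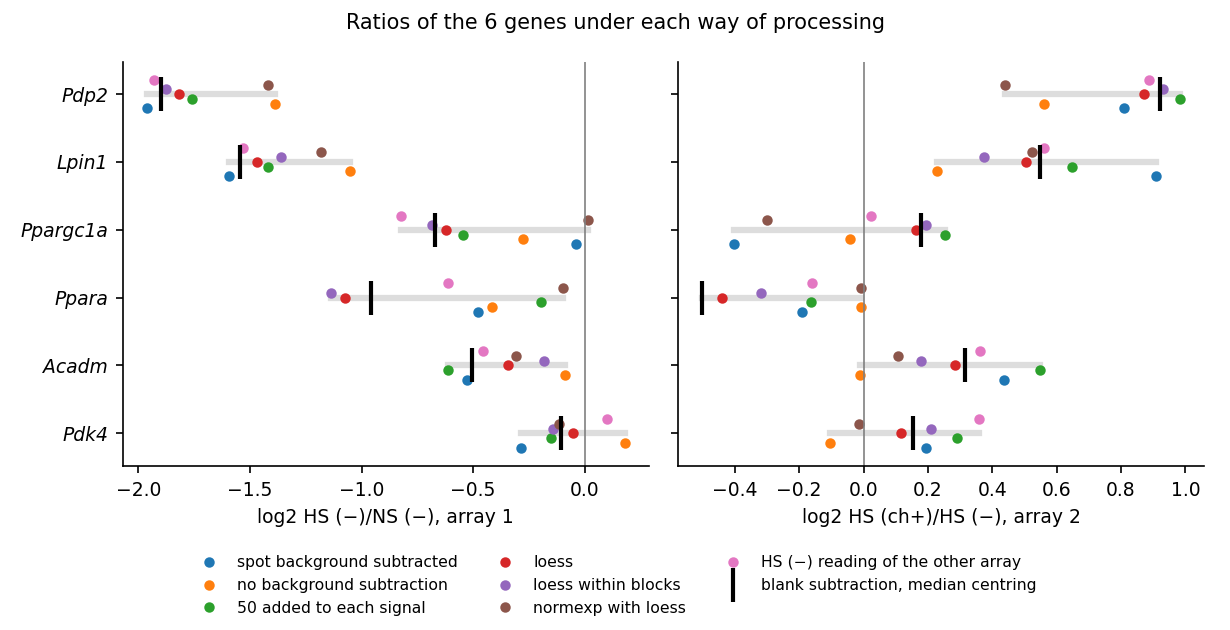
Log2 HS (−)/NS (−) of array 1 (left) and log2 HS (ch+)/HS (−) of array 2 (right) of the 6 genes under blank subtraction with median centering (black bars) and under 7 other ways of processing (colored points); gray bands show the whole range. Pdp2 and Lpin1 kept their side of 0 in both panels, whereas the points of Ppargc1a and Pdk4 reach both sides of 0 in both panels.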

How the data were processed

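The scanner output deposited by the authors gives the median intensity of each spot and its local background at 635 nm (Cy5) and 532 nm (Cy3), combined from scans at 3 gains; the values of the single gains are not used here. The authors also deposited a table of log2 ratios, with scale and direction unstated. Set against the intensity values, its columns are log2 Cy3/Cy5 with medians over genes of 0.0020 and 0.0010. These ratios were recalculated as follows. The mean of the 4553 blank spots, with 5% trimmed at each end, was subtracted from each channel, genes not above it by 2 SD in both channels were left without a ratio, and the median over genes and 521 quality control spots (0.17 on array 1, 0.38 on array 2) was subtracted. The result differed from the deposited log2 values by at most 2.7e-05. One spot failed a scanner flag on array 2. Direction was taken from the dyes in the labels. HS (ch+)/NS (−) is the product of both ratios.

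The members and lists were chosen with earlier results of these data known. Named were the members, list genes with an ID, and the 3 named genes nearest to each member, of which 1 is not reported here. Of the study's 50 named genes, 36 were matched to RefSeq by accession. Alternatives were subtraction of the local background, no background subtraction, 50 added to each signal, loess over the array or within blocks, normexp (offset 50) with loess, Aquantile between arrays, exchanged HS (−) readings and the deposited table. The direct Cy3 ratio and medians without Ppara were added after the data had been seen. Precision is limited by the number of arrays, 2. Processing was also run on simulated arrays with planted changes. These had no dye preference of probes, and their spots did not vary with the local background, so the run does not bear on either limit. Python 3.11.15, numpy 2.4.6, pandas 2.3.3, matplotlib 3.10.9, R 4.3.3 and limma 3.58.1 were used.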

Additional observations from a re-analysis of the deposited data

How the results depend on the processing

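The medians of the 6 genes include Pdp2 and Lpin1, which were selected on these ratios. For HS (−)/NS (−), the median of the 6 genes stayed below 0 on the log2 scale under 8 alternatives other than the deposited table. From -0.81 it moved to -0.50 with the background of the spot subtracted, -0.35 without background subtraction, -0.58 with 50 added to each signal and -0.21 with normexp and loess. The median log2 HS (ch+)/HS (−) ratio, 0.25, was 0.42 with 50 added, 0.050 with normexp and loess, and reversed to -0.0093 without background subtraction. The latter setting moved the median of the 4127 genes by 0.32 on array 1 and by -0.27 on array 2. Subtraction of the spot background moved that of array 2 by 0.24, and 50 added to each signal by 0.19. For Ppargc1a, the log2 HS (−)/NS (−) ratio of -0.67 reversed to 0.015 with normexp and loess, and the log2 HS (ch+)/HS (−) ratio of 0.18 reversed to -0.40 with the background of the spot subtracted, to -0.043 without background subtraction and to -0.30 with normexp and loess. For Acadm, the log2 HS (ch+)/HS (−) ratio of 0.31 reversed to -0.012 without background subtraction. The count of genes with an HS (ch+)/HS (−) ratio over 1.4, 2 of 6, was 1 without background subtraction, 1 with loess within blocks, 1 with normexp and loess, and 0 with a limit of 2, but 3 with 50 added to each signal, Acadm included, and 3 with a limit of 1.2. The count under 0.5 for HS (−)/NS (−), 2 of 6, was 3 with either loess, Ppara included, and 4 with a limit of 0.67. Of 138 values of single genes under alternatives other than the deposited table, 75 moved by less than 1 SD of the repeated readings. The cause was not tested in any case. Other gains were not run, as the files used hold 1 value per channel. No paired analysis was possible because each group had 1 pool.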
